A study of Mus musculus with 23 samples.

Results

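The comparison described here sets mice heterozygous for the Grin2b C456Y mutation (HT) against wild-type mice (WT) when both had received vehicle, the carrier solution without drug. Its members are 12 of the 23 RNA-seq libraries of the series, 6 WT vehicle and 6 HT vehicle, and every gene with a mean of at least 10 normalised reads over the 23 libraries, 17256 of 18848 genes. All mice were male, of the C57BL/6J strain and 17 days old, and the tissue is labelled brain with no region. The other libraries, 5 WT and 6 HT, came from mice given DCS (the usual short form of D-cycloserine, which acts at the glycine site of NMDA receptors, although the labels give only the 3 letters). The column names mark the allele as a knock-in, so the mutation sits in the gene itself. They name no driver that would limit it to a cell type, and the WT mice carry no listed alteration. The labels do not say whether each library came from its own mouse, and p-values therefore measure the spread between libraries, which may be technical.

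Grin2b encodes GluN2B, a subunit of the NMDA receptor. This receptor is a channel made of GluN1 subunits, encoded by Grin1, together with GluN2 or GluN3 subunits. Built of GluN1 and GluN2, it opens only when glutamate and a co-agonist (glycine or D-serine) are both bound. Calcium that enters through it acts on kinases and phosphatases of the postsynaptic density and can alter transcription in the nucleus. GluN2B prevails in the young forebrain, and GluN2A joins it as synapses mature.

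The mutated residue lies in the ligand-binding part of GluN2B, which binds glutamate. In the protein change C456Y, cysteine at residue 456, counted from the first methionine, is replaced by tyrosine. The base change behind it is not given in the sources used here, and a table of reads per gene does not show which copy a read came from.

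The libraries were alike in size, at 32.4 M to 33.2 M normalised reads (M, 1e6 reads). Their depth before scaling, estimated from the spacing of low values, was 29.2 M to 37.5 M reads in WT vehicle and 28.7 M to 37.3 M reads in HT vehicle. One library of each genotype stood apart. HT vehicle replicate 6 was the lowest or the highest of the 12 libraries in 27.1% of genes, against 13.5% to 19.0% for each of the other 11. WT vehicle replicate 2 lay alone on the first principal component, which held 18.5% of the variance, at a score of -28.9. Several values are also given without one of these libraries. Across genotypes, libraries numbered within 1 to 3 or within 4 to 6 deviated from their group means more alike (median r = 0.09 over pairs of a WT and an HT library) than pairs across these ranges (-0.06). The labels give the numbers no meaning as batches. Many of the gene lists that differ between the ranges are given for both.

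No gene passed an adjusted p of 0.05 between HT vehicle and WT vehicle (limma with Benjamini-Hochberg adjustment over 17256 genes, 0.0% called). The smallest adjusted p was 0.536, and 3 genes were under 0.6. At an unadjusted p under 0.05 there were 729 genes (4.22%), where 863 would be counted if no gene differed, 378 of them higher in HT (2.19%) and 351 lower (2.03%). In 43 genes (0.249%) the 6 HT and the 6 WT libraries did not overlap, 20 higher (0.116%) and 23 lower (0.133%). Without HT vehicle replicate 6, 1063 genes had an unadjusted p under 0.05 and 0 passed the adjusted threshold.

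The data limit how large most differences could be. The median SE of a log2 difference was 0.068, and the 95% interval of the difference lay within 1.2-fold in either direction for 62.8% of genes, within 1.5-fold for 86.2% and within 2-fold for 97.1%. Among genes with a mean of at least 50 normalised reads, 35 of 14085 had means more than 1.5-fold apart. Over all genes the median log2 difference was -0.00045, with 49.7% of genes higher in HT and 50.3% lower. These shares stand beside the counts of gene lists below as a description only. Members of a list can vary together between libraries, so a count is not a test over independent genes. The lists and their members were also chosen with earlier results of these data known.

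**Figure D1:**
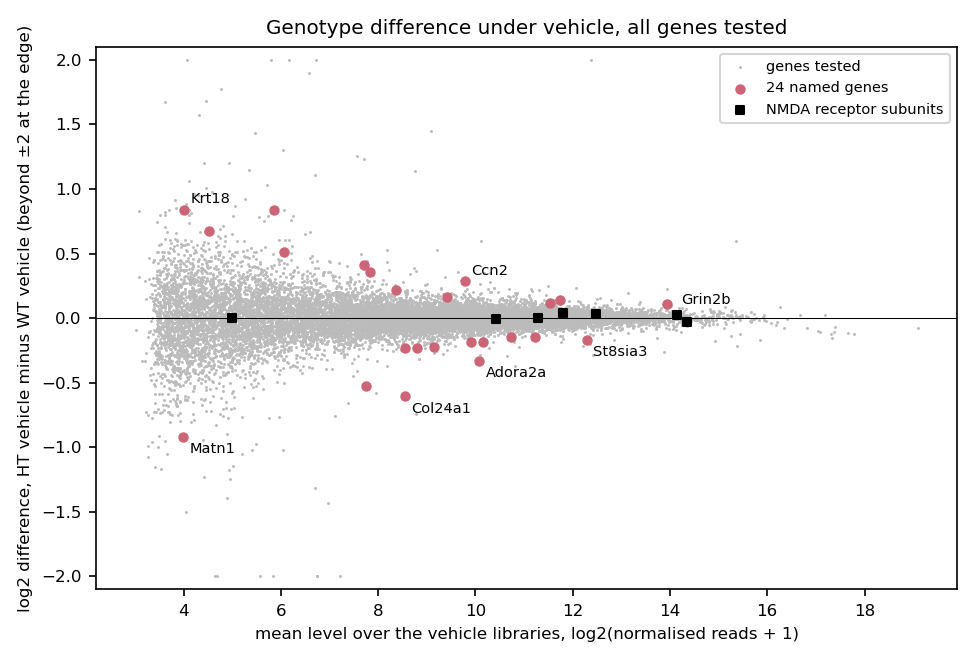
Log2 difference between HT vehicle and WT vehicle (y axis) against mean level on a log2 scale (x axis) for all 17256 genes tested, with the 24 named genes in red and the 7 NMDA receptor subunits as black squares; 12 genes beyond 2 in size are drawn at the edge. The subunits lie on the zero line, and the named genes with the widest differences, such as Krt18 at 0.84 and Matn1 at -0.92, are among the least abundant.

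The mutated gene itself was read at like levels in both genotypes. Grin2b had 16323, 18038 and 19269 normalised reads in WT vehicle (lowest, median, highest) and 14618, 18934 and 19880 in HT vehicle. The ranges overlapped throughout, and 5 of 6 HT libraries lay above the WT mean while HT vehicle replicate 6 lay below every other library. The log2 difference was 0.02 ± 0.09 (SE), with a 95% interval from -0.15 to 0.20, and 0.09 without that replicate.

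The obligatory subunit gene Grin1 had 20038, 20997 and 22211 normalised reads in WT and 20003, 20493 and 21350 in HT, a log2 difference of -0.03 ± 0.03. Grin2a, whose product partners GluN2B in maturing synapses, had 5330, 5591 and 6094 in WT and 4614, 5914 and 6300 in HT, with HT vehicle replicate 6 again the lowest of all. Its log2 difference was 0.03 ± 0.06, and 0.09 without that library. The subunits with narrower distribution differed as little: Grin2c by 0.04 ± 0.05, Grin2d by -0.01 ± 0.05 and Grin3a by -0.00 ± 0.06. Grin3b, at a median of 32.0 normalised reads in WT and 25.9 in HT, was the only one of the 7 whose interval, from -0.49 to 0.49, reached beyond 1.2-fold. The sign of so small a difference is not fixed, and Grin2b, Grin2d, Grin3a and Grin3b each changed sign when certain single libraries were left out.

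Genes for the other glutamate receptors and for the synapse gave the same picture. Of 164 genes in 10 lists of receptors, co-agonist supply, scaffolds, signalling, adhesion, release and GABA receptors, 81 were higher in HT and 83 lower, with a median log2 difference of -0.00085. The interval lay within 1.2-fold in 156 of them (95.1%, against 62.8% of all genes), and 9 (5.49%) had an unadjusted p under 0.05. Intervals are wider for scarce genes such as Grin3b, and these lists had high mean levels in WT, from 9.41 to 13.55 (log2). The share among genes of like level was not computed, so the larger share is not read as a trait of synapse genes. Counts of such intervals in the lists below have the same limit. Among 16 genes of AMPA receptors, the channels that carry fast excitation, 9 were higher and 7 lower. The lowest unadjusted p fell on Gsg1l, an auxiliary AMPA receptor subunit, at a median of 2399 normalised reads in WT and 2236 in HT (log2 difference -0.09 ± 0.04, limma adjusted p = 0.999). Metabotropic glutamate receptors, which signal through G proteins, were higher in 6 of 7 genes with a median of 0.07. Among them were Grm4 (0.10 ± 0.05) and Grm5 (0.07 ± 0.05), and the seventh was Grm8 (-0.09 ± 0.06). Under DCS 2 of the 7 were higher, with a median of -0.02.

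The co-agonist list holds enzymes and transporters of serine and glycine, and 8 of its 13 genes were higher, with a median of 0.03. Dao, the D-amino acid oxidase that degrades D-serine, had 94.2, 111 and 137 normalised reads in WT and 125, 144 and 156 in HT. All 6 HT libraries lay above the WT mean but the ranges overlapped, and the log2 difference was 0.36 ± 0.12 (limma adjusted p = 0.999). Gldc, of the glycine cleavage system, differed by 0.12 ± 0.06, and Psat1, which serves serine synthesis, by -0.06 ± 0.03.

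On the postsynaptic side, 8 of 18 scaffold genes were higher and 10 lower, with all 18 intervals within 1.2-fold. Without HT vehicle replicate 6, 5 of the 18 were lower. Genes that act on the calcium admitted by NMDA receptors were lower in 21 of 26, with a median of -0.03. Without that library 19 of 26 were lower, with a median of -0.02. Under DCS 13 of the 26 were lower, with a median of -0.0004. Nos1, the neuronal nitric oxide synthase tied to the NMDA receptor complex, had a median of 3669 normalised reads in WT and 3496 in HT, and HT vehicle replicate 6 was lowest at 2855. Its log2 difference was -0.10 ± 0.05, and -0.05 without that library. The calcineurin subunit gene Ppp3ca differed by -0.06 ± 0.03 and its regulator Rcan1 by -0.07 ± 0.04, while Creb1, the calcium-responsive transcription factor, differed by 0.06 ± 0.05, and by 0.11 without HT vehicle replicate 6.

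On the presynaptic side, Vamp1 was the 1 gene of the 164 whose groups did not overlap (0.249% of all genes). It encodes a vesicle protein of the fusion machinery and had 7564, 7753 and 8157 normalised reads in WT against 6404, 6977 and 7278 in HT. The log2 difference was -0.17 ± 0.05 (limma adjusted p = 0.999). The other release genes were split, 15 of 29 higher, and Slc17a7, the main cortical glutamate transporter of vesicles, differed by 0.05 ± 0.02. Of the adhesion genes 14 of 24 were higher, and Lgi1, a secreted ligand at synapses, differed by -0.07 ± 0.03.

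The genes with the smallest p in each direction were taken as the named genes, 12 higher and 12 lower, leaving out predicted gene models. They were chosen by p from this comparison, so their values are a description. Among them 11 of the 12 higher genes had all 6 HT libraries above the WT mean, as did all 12 lower genes below it. The groups did not overlap in 9 of the 24, against 0.249% of all genes. Choice by a small p favours both counts.

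Ccn2 (ENSMUSG00000019997, GRCm38 chromosome 10, 24595442 to 24598683, plus strand) encodes a matricellular protein and in cortex marks subplate neurons. It had 724, 799 and 857 normalised reads in WT and 901, 948 and 1100 in HT. The groups did not overlap, and the difference was the one with the smallest p, 0.29 ± 0.06 (log2, limma adjusted p = 0.536). HT vehicle replicate 6 was the highest library, and without it the difference was 0.25.

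Ptk2, the focal adhesion kinase, had 3055, 3227 and 3482 normalised reads in WT and 3266, 3618 and 3818 in HT, a mean 10.3% higher with overlapping ranges. Lrp5, a co-receptor for Wnt ligands, had 276, 308 and 329 in WT and 331, 357 and 375 in HT, so that the groups were adjacent but apart. Pear1, a receptor of platelets and endothelium, also separated the groups, with 171, 204 and 225 in WT and 235, 249 and 296 in HT. Calcrl, the vascular receptor for adrenomedullin and CGRP, had 143, 189 and 208 in WT and 199.9, 236 and 289 in HT, a log2 difference of 0.41 ± 0.11 with slight overlap.

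Krt18, a keratin of simple epithelia, had 5.63, 12.1 and 13.3 normalised reads in WT and 14.5, 18.7 and 26.0 in HT, apart in every library but near the limit of 10 set for testing. Slc26a7, an anion transporter, had a median of 54.9 in WT and 78.0 in HT, and Mocos, which activates molybdenum enzymes, 15 and 26.8. Zan, known as a sperm protein, had a median of 42.1 in WT and 81.6 in HT, but 1 of the 6 HT libraries, at 31.5, lay below the WT mean.

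Of the abundant higher genes, Nsmf has a known tie to the mutated receptor. Its product, Jacob, carries signals from NMDA receptors to the nucleus. It had 14567, 15049 and 15633 normalised reads in WT and 15570, 16014 and 16943 in HT, a mean 7.58% higher, and the lowest HT library lay just within the WT range. Rab3gap2, of the complex that inactivates the vesicle GTPase Rab3, was 8.43% higher, and Lonrf1 was 12.1% higher.

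Among the lower genes the smallest p belonged to St8sia3, a brain sialyltransferase that adds sialic acid to glycolipids and glycoproteins. It had 5066, 5261 and 5678 normalised reads in WT and 4571, 4708 and 4901 in HT. The groups did not overlap, and the difference was -0.17 ± 0.04 (log2, limma adjusted p = 0.536), a mean 11.0% lower. Col24a1 (chromosome 3, 145292472 to 145552011, plus strand), a collagen chain also seen in deep cortical neurons, had 379, 430.3 and 595 in WT and 238, 293 and 385 in HT. Its log2 difference was -0.61 ± 0.13 (limma adjusted p = 0.59), with 1 HT library inside the WT range.

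Adora2a (chromosome 10, 75316877 to 75334784, plus strand) encodes the adenosine receptor of striatal neurons that project to the pallidum. It had 1104, 1140.5 and 1557 normalised reads in WT and 875, 957 and 1069 in HT, with no overlap and a difference of -0.33 ± 0.07 (log2, limma adjusted p = 0.786). Syndig1l, enriched in the striatum, had 1121, 1210.5 and 1386 in WT and 993, 1077 and 1134 in HT, with overlap. WT vehicle replicate 1 was the highest library for Adora2a, at 1557 against 1104 to 1178 in the other WT libraries.

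Kcnn1, a calcium-activated potassium channel, had 556, 603 and 747 normalised reads in WT and 497, 523 and 547 in HT and did not overlap. Asic4, of the acid-sensing channel family, had medians of 1035 and 891 with overlap. Its mean was 12.0% lower in HT. Cd4, the co-receptor of helper T cells, had 188, 249 and 336 in WT and 161, 172 and 190.2 in HT, tighter in HT than in WT.

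The remaining lower genes have diverse roles. Zfp101, a zinc finger gene, had medians of 422 in WT and 347 in HT, and Lrrc49, of the complex that glutamylates tubulin, 2533 and 2271, both without overlap. Sec22a, of the early secretory pathway, had medians of 478 and 399, and Kcmf1, a ubiquitin ligase, 1773 and 1632, both with overlap. Matn1, a cartilage matrix protein, was scarce, at 11.0, 21.4 and 27.7 in WT and 4.83, 9.47 and 15.8 in HT.

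**Figure D2:**
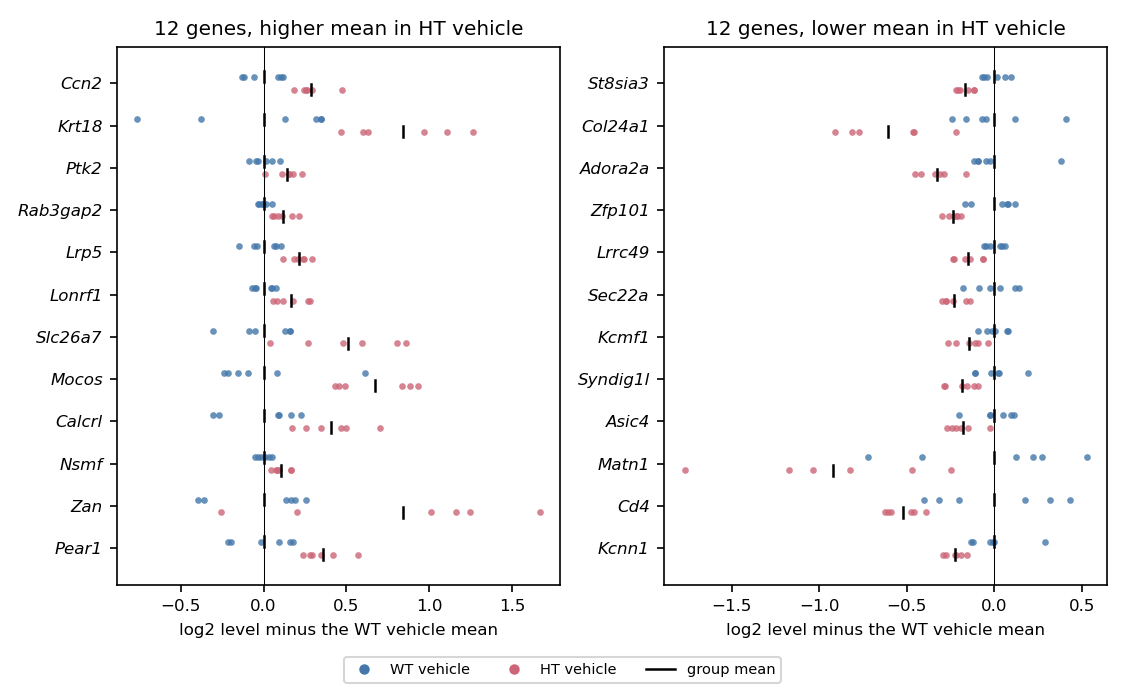
Log2 level of each of the 24 named genes in the 6 WT vehicle (blue) and 6 HT vehicle (red) libraries, relative to the WT vehicle mean (x axis), with black bars for group means. The groups are apart in 9 of these genes, which were chosen by p, among them Ccn2, Krt18, St8sia3 and Adora2a (0.249% of all genes). A single HT library of Zan lies on the other side of the WT mean.

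The same genotype difference was measured in the DCS libraries, which share no library with the vehicle comparison. No gene passed there either (0.0% called, 1302 genes or 7.55% at an unadjusted p under 0.05). Of the 24 named genes 17 had the same sign under DCS, against 53.3% of all genes, and all 24 differences were smaller in size than under vehicle, the comparison in which they were chosen for a small p. The same sign with an unadjusted p under 0.05 was found in 3 of the 24, Nsmf (0.07 under DCS), Adora2a (-0.23) and Cd4 (-0.36), against 4.5% of all genes. Choice by a small vehicle p favours genes with a small shared spread, so this count is not an independent check. Ccn2 had a difference of 0.04 under DCS, St8sia3 -0.04 and Col24a1 -0.08.

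The test of the difference itself, the interaction of genotype and treatment, called no gene (limma, 0.0% called, smallest adjusted p = 0.984), with 756 genes (4.38%) at an unadjusted p under 0.05. Of the 24 genes 15 had an unadjusted interaction p under 0.05, but they had been chosen for their size under vehicle, which enters the interaction. Krt18 had the smallest of these, with a log2 difference of 0.84 under vehicle and -0.15 under DCS.

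**Figure D3:**
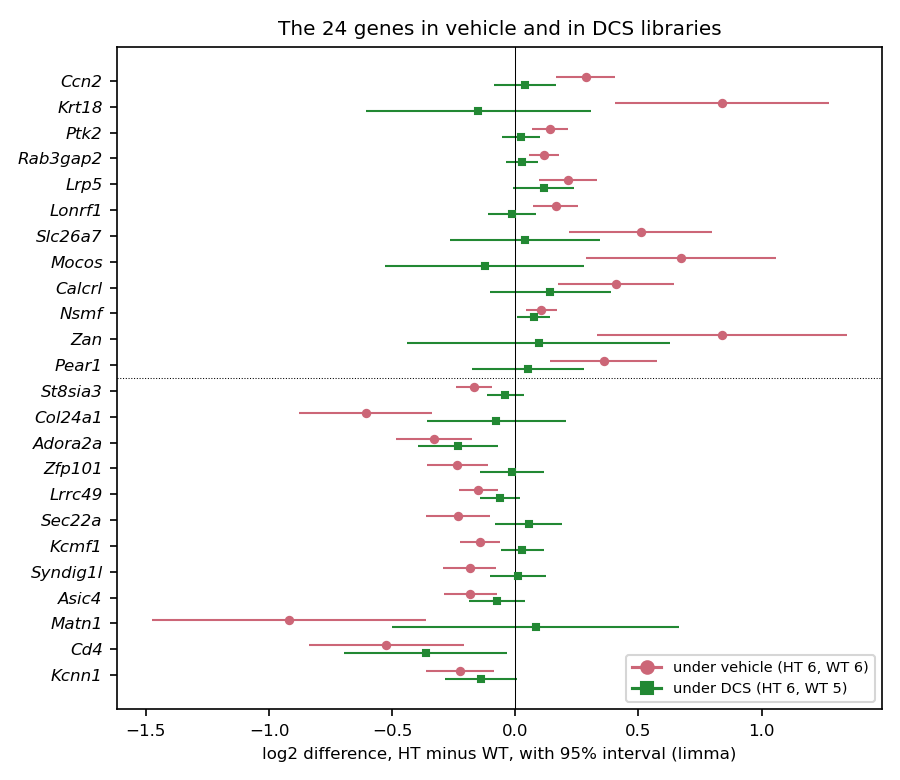
Log2 difference between HT and WT for each of the 24 named genes under vehicle (red circles) and under DCS (green squares), with 95% intervals from limma (x axis). All 24 green points lie nearer to 0 than the red ones, on whose p the genes were chosen, and the green intervals of Nsmf, Adora2a and Cd4 leave out 0.

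Lists of marker genes and pathways were then described by how many members were higher or lower. No list had a mean that separated the 6 HT from the 6 WT libraries, in 0 of 45 lists. In bulk brain, fewer cells of a type and less RNA per cell cannot be told apart.

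Of 20 genes for striatal projection neurons 17 were lower in HT, with a median log2 difference of -0.11, and 7 of them had an unadjusted p under 0.05 (2.03% of all genes in that direction). Besides Adora2a and Syndig1l they include Rgs9, which ends dopamine receptor signalling, at a median of 1869.8 normalised reads in WT and 1631 in HT. Pdyn, the dynorphin precursor of the direct pathway, went the other way by 0.11 ± 0.05, with 6 of 6 HT libraries above the WT mean. The summed list ran from 49359 to 57672 normalised reads in WT and 48262 to 51734 in HT, and all 6 HT list means lay below the WT mean. WT vehicle replicate 1 had the highest list mean, and without it the median was -0.07, with 15 of 20 lower. Under DCS 15 of the 20 genes were lower, with a median of -0.05.

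The cortical lists were split. Of 19 deep cortical and subplate genes 12 were higher, with a median of 0.01, and 2 of the 19 did not overlap (0.116% of all genes in that direction). These were Ccn2, above, and Nxph3, a neurexin ligand, with 950.1, 994 and 1029 normalised reads in WT and 1032, 1069.6 and 1147 in HT. Col24a1, in the same list, was lower, so the list did not go one way. Upper layer genes were higher in 10 of 17 (median 0.03), where Lamp5 stood against them at -0.18 ± 0.06, and hippocampal genes in 10 of 15 (0.02). Hpca, the calcium sensor hippocalcin, was lower without overlap (0.133% of all genes in that direction). It had 10954, 11338 and 11546 in WT and 10064, 10492 and 10870 in HT (log2 difference -0.10 ± 0.03, limma adjusted p = 0.999).

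Interneuron markers were lower in 17 of 23, with a median of -0.03. Slc32a1, which loads GABA into vesicles, differed by -0.07 ± 0.03, and Reln by 0.06 ± 0.04. Olfactory bulb markers were higher in 12 of 13 (median 0.11), and in 10 of 13 without HT vehicle replicate 6. Sp8, of olfactory interneurons, differed by 0.18 ± 0.08. Thalamic and hypothalamic markers were higher in 12 of 18 (0.04), among them the peptide gene Cartpt with 212, 243 and 279 normalised reads in WT and 268, 292 and 314 in HT, and cerebellar markers in 11 of 20 (0.00434), or 7 of 20 without WT vehicle replicate 2.

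Hindbrain and monoamine markers had the lowest median of the lists, -0.29, with 12 of 19 tested genes lower (of the 23 in the list 22 were found in the table by symbol and 19 passed the limit of 10). Among the lower ones were Hox genes, which pattern the hindbrain and spinal cord, such as Hoxb3 with 23, 47.9 and 61.1 normalised reads in WT and 17.5, 25 and 35.8 in HT. Slc6a4, the serotonin transporter, differed by 0.10 ± 0.09. The spread between libraries was wide. HT vehicle replicates 3, 4 and 6 had list means (log2) of 5.83, 5.62 and 5.65 and WT vehicle replicate 3 of 5.96, while the other 8 libraries lay from 6.27 to 6.49. Within replicate numbers 1 to 3 the median was 0.0069 and within 4 to 6 it was -0.51. With a mean of at least 50 required the median was 0.08 and 2 genes were lower. In the DCS libraries 16 of the 19 genes were lower in HT, with a median of -0.41. How much of each brain region a library held was not tested.

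Oligodendrocyte and myelin genes were lower in 23 of 24, with a median of -0.09 and a sum of 523718 to 598400 normalised reads in WT and 452469 to 568632 in HT. Bcas1, of newly formed oligodendrocytes, differed by -0.09 ± 0.04 and Tmem125 by -0.18 ± 0.07, and Enpp2 alone was higher (0.03 ± 0.08). HT vehicle replicate 6 had the lowest list mean, and without it the median was -0.05, with 18 of 24 lower. All 24 were lower in HT under DCS, with a median of -0.19. Precursor genes were higher in 9 of 16 (0.00672), with Cspg4 at 0.16 ± 0.06 and Pdgfra at 0.11 ± 0.05, and astrocyte genes in 14 of 20 (0.04). Within replicate numbers 4 to 6 the astrocyte list turned, with 7 of 20 higher and a median of -0.03, against 16 of 20 and 0.08 within 1 to 3. Microglia genes were higher in 19 of 20, with a median of 0.12, but their sum ran from 5968 to 9915 in WT and 6498 to 9791 in HT, and leaving out 1 library moved the median from 0.05 (without WT vehicle replicate 4) to 0.23 (without WT vehicle replicate 2). The microglia median was 0.27 within replicate numbers 1 to 3 (19 of 20 higher) and 0.02 within 4 to 6 (11 of 20). It was 0.13 under DCS, with 18 of 20 higher. Tmem119, a microglial surface marker, differed by 0.29 ± 0.16.

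Endothelial genes were higher in 17 of 18, with a median of 0.07, among them Flt1, a VEGF receptor, with 1316, 1342 and 1410 normalised reads in WT and 1277, 1505 and 1629 in HT. Pericyte and smooth muscle genes were higher in 12 of 15 (median 0.17), and all 6 HT list means lay above the WT mean, with those of HT vehicle replicates 1, 2 and 3 above every WT library. Pdgfrb, the pericyte receptor, differed by 0.19 ± 0.08 and Myh11, a smooth muscle myosin, by 0.24 ± 0.10. Within replicate numbers 1 to 3 the endothelial median was 0.14 (16 of 18 higher) and the pericyte median 0.20 (14 of 15), against 0.02 (10 of 18) and 0.06 (10 of 15) within 4 to 6. Under DCS the medians of these lists were 0.07 and 0.05.

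Choroid plexus genes were higher in 12 of 15 (median 0.22, and 0.14 without WT vehicle replicate 2), with 5 at an unadjusted p under 0.05 (2.19% of all genes in that direction). Kl, which encodes klotho, had 170.4, 206 and 224 normalised reads in WT and 203, 243 and 289 in HT, and Kcne2, a potassium channel subunit of the plexus, 20.8, 29.4 and 30.1 against 29.5, 39.2 and 53.9. The summed list ran from 8764 to 11230 in WT and 8809.9 to 13686 in HT, HT vehicle replicate 3 having the highest list mean. Meningeal fibroblast genes were higher in 14 of 15 (median 0.13, and 0.04 without WT vehicle replicate 3), with a sum of 6771 to 8802 in WT and 7432 to 9773 in HT. Within replicate numbers 1 to 3 the choroid plexus median was 0.33 (12 of 15 higher) and the meningeal median 0.24 (14 of 15), against 0.09 (9 of 15) and 0.01 (9 of 15) within 4 to 6. Under DCS the median was -0.09 for the choroid plexus and -0.02 for the meninges. No tested member of any list was at 0 in all 12 libraries. Krt18, Slc26a7, Calcrl and Pear1 had higher means in HT as these lists did. Their differences were 0.745, 0.57, 0.45 and 0.38 within replicate numbers 1 to 3, and 0.93, 0.44, 0.37 and 0.34 within 4 to 6. They were chosen by p over all 12 libraries, which favours genes that differ in both ranges. These values are therefore not set against the list medians. The part of border and vessel tissue in the differences of these genes was not tested.

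Matrix genes were higher in 22 of 28 (0.06) and focal adhesion genes in 16 of 23 (0.03). Within replicate numbers 1 to 3 these were 25 of 28 (0.13) and 18 of 23 (0.06), and within 4 to 6 they were 15 of 28 (0.0063) and 12 of 23 (2.3e-05). Thbs1, a matricellular protein like Ccn2, had 159, 196 and 222 normalised reads in WT and 206, 239.6 and 278 in HT. In the focal adhesion list Tln2, a talin, differed by 0.08 ± 0.04 beside Ptk2, and Zyx, zyxin, by -0.13 ± 0.05.

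**Figure D4:**
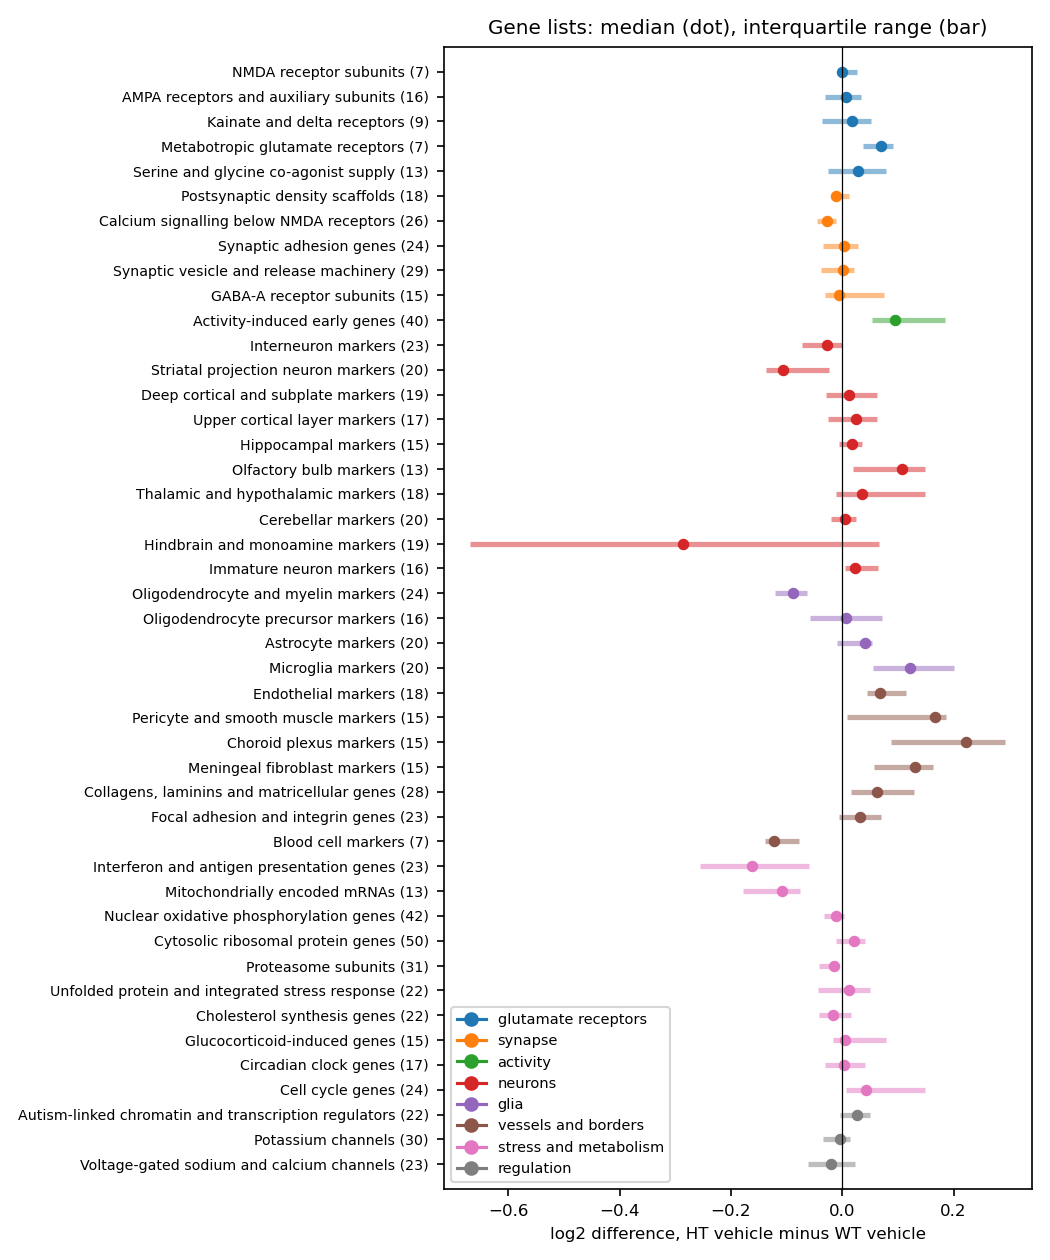
Median log2 difference between HT vehicle and WT vehicle of the members of each of the 45 gene lists (dots) with the interquartile range of the members (bars), coloured by family and with the number of tested members in brackets. Metabotropic glutamate receptors lie at 0.07 and the other receptor and synapse lists nearer to 0, choroid plexus markers lie highest at 0.22 and hindbrain markers lowest at -0.29.

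Activity-induced early genes, transcribed when neurons fire, were higher in 34 of 40 with a median of 0.09, and 2 had an unadjusted p under 0.05 (2.19% of all genes in that direction). Within replicate numbers 1 to 3 the median was 0.03 (28 of 40 higher) and within 4 to 6 it was 0.15 (36 of 40). Plk2, a kinase that trims spines, had 3758, 4096 and 4307 normalised reads in WT and 3928, 4361 and 4657 in HT. Pcsk1, a prohormone convertase, differed by 0.11 ± 0.05 and the nuclear receptor gene Nr4a3 by 0.28 ± 0.18, while Jun differed by -0.04 ± 0.05. The summed list varied by library, from 58255 to 82555 in WT and 61287 to 85841 in HT, with the lowest list mean of each genotype in replicate 4. Without WT vehicle replicate 4 the median was 0.04 and 23 of 40 were higher, and under DCS the median was -0.03 with 13 of 40 higher.

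Ion channel lists showed little. Potassium channel genes were lower in 20 of 30 but with a median of -0.00455, in 9 of 30 without HT vehicle replicate 6 and in 12 of 30 within replicate numbers 1 to 3. Kcnn2, a relative of Kcnn1, had 963, 1046 and 1081 normalised reads in WT and 914, 944 and 1006 in HT. Sodium and calcium channel genes were lower in 14 of 23 (-0.02). Scn4b, a sodium channel subunit abundant in striatum, was lower without overlap (0.133% of all genes in that direction). It had 4691, 5035 and 5942 in WT and 3758, 4483 and 4631 in HT, where HT vehicle replicate 6 was lowest. Its log2 difference was -0.22 ± 0.08, and -0.17 without that library.

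Mitochondrially encoded mRNAs were lower in 11 of 13 (median -0.11), with mt-Nd1, a complex I subunit, at -0.11 ± 0.04 and mt-Co3, which ran from 9030 to 74497 normalised reads within WT alone, at 0.60 ± 0.66. Of 42 nuclear genes of oxidative phosphorylation 29 were lower, with a median of -0.01, and all 42 intervals lay within 1.2-fold. Sdhc, of complex II, had 2663, 2728 and 2894 normalised reads in WT and 2466, 2510.2 and 2749 in HT, and Atp5b, of the ATP synthase, differed by 0.08 ± 0.03. Proteasome genes were lower in 25 of 31 (-0.01), ribosomal protein genes higher in 30 of 50 (0.02) and cholesterol synthesis genes lower in 14 of 22 (-0.02). Within replicate numbers 4 to 6 the majority turned for oxidative phosphorylation (18 of 42 lower) and the proteasome (12 of 31), and within 1 to 3 for cholesterol synthesis (7 of 22). The median of the mitochondrially encoded mRNAs was -0.21 within 1 to 3 and -0.02 within 4 to 6.

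In the list of interferon and antigen presentation genes, 20 of 23 were lower, with a median of -0.16 and none at an unadjusted p under 0.05. Irf9, a transcription factor of the interferon response, differed by -0.19 ± 0.10 and Rsad2 by -0.51 ± 0.26. WT vehicle replicate 3 had the highest list mean, and without it the median was -0.08. Within replicate numbers 4 to 6 the median was 0.01 with 10 of 23 lower, against -0.25 and 19 of 23 within 1 to 3. The median was -0.10 under DCS, with 18 of 23 lower. Genes of the unfolded protein and integrated stress response were divided, 11 higher and 11 lower. Hspa5, the chaperone BiP, had 6315, 6569.8 and 7325 normalised reads in WT and 6749, 7629 and 7961 in HT, while Asns, an amino acid response gene, differed by -0.15 ± 0.07.

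Genes of chromatin and transcription linked to autism were higher in 16 of 22 (0.03), all within 1.2-fold, with Myt1l, a neuronal transcription factor, at 0.08 ± 0.03. Cell cycle genes were higher in 20 of 24 (0.04, and 11 of 24 within replicate numbers 4 to 6), immature neuron genes in 13 of 16 (0.02, and 6 of 16 without HT vehicle replicate 6), glucocorticoid-induced genes in 8 of 15 (0.00437) and clock genes in 9 of 17 (0.0026). Blood cell genes were lower in 6 of 7 tested (-0.12, and -0.02 without HT vehicle replicate 6), with no member at an unadjusted p under 0.05.

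**Figure D5:**
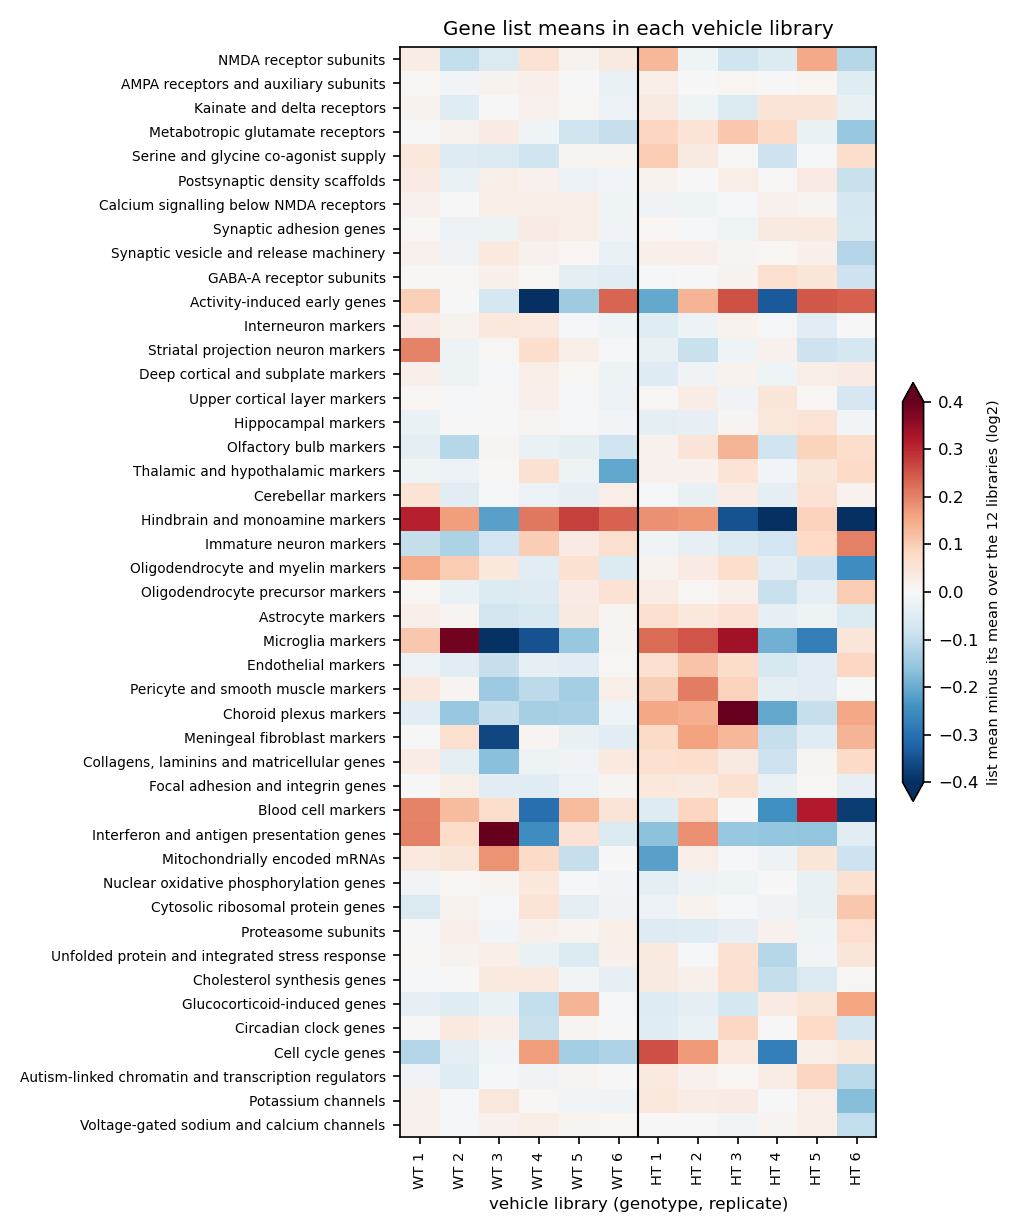
Mean log2 level of each gene list in each vehicle library, minus the list's mean over the 12 libraries (colour, from -0.4 to 0.4, with stronger values at the ends of the scale). No list separates the genotypes, HT 6 is low across synaptic and channel lists, WT 3, HT 3, HT 4 and HT 6 are low in hindbrain markers, and HT 1, HT 2, HT 3 and HT 6 are high in endothelial and choroid plexus markers.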

How the data were processed

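Libraries came from brain mRNA by a kit that keeps strand, as the labels' protocols state. The authors deposited 1 table of 18848 genes by 23 libraries, whose values are a non-negative signal, reads per gene after scaling for library size as judged from the values. GRCm38, DESeq2 1.26.0, Salmon 1.1.0 and R 3.6.2 appear in the submitters' processing notes, with no role or order. Whole reads could not be recovered, since 70.3% to 79.8% of low values lay within 0.15 of a whole multiple. Scaling hides differences in total RNA.

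Here limma 3.58.1 (R 4.3.3) was fitted to log2(value + 1) over all 23 libraries, 1 coefficient per group, with a mean trend, robust moderation and two-sided tests, with Benjamini-Hochberg adjustment at 0.05 over 17256 genes with a mean of at least 10. Differences are on this scale, which understates those of low genes. The fit was tested on simulated data. Symbols were missing for 16 identifiers. Coordinates come from GENCODE M21. Some items are not reported here. Named genes are the 12 with the smallest p in each direction, predicted models left out, the 7 NMDA receptor subunits, and up to 4 members of each list. The gene lists and members were chosen with earlier results of these data known. Alternatives covered scaling, filters, pseudocounts, variance settings, replicate numbers and libraries.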

Additional observations from a re-analysis of the deposited data

Results flagged for a closer look

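In 320 groups of 6 libraries (the named genes and the gene lists in each genotype), 1 library stood apart from the other 5 in 30 groups, by a gap to its nearest neighbour of more than 0.625 of the group's whole range. About 5% of groups would show this by chance. In 15 of the 30 that library was HT vehicle replicate 6.

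Low in HT vehicle replicate 6 were Grin2b (14618 normalised reads, the other HT libraries 18075 to 19880), Grin2a (4614, others 5806 to 6300), Nos1 (2855, others 3466 to 3773), Creb1 (1472, others 1737 to 1819), Gabrb1 (3400.5, others 3972 to 4230) and Scn4b (3758, others 4395 to 4631). High there were Ccn2 (1100.07, others 901 to 969), Psat1 (2921, others 2685 to 2739) and Sdhc (2749, others 2466 to 2555). Its list means (log2) were low for AMPA receptors (11.8172), scaffolds (12.6565), release machinery (13.4214), potassium channels (11.3179) and sodium and calcium channels (12.3393), and high for ribosomal protein genes (11.755). HT vehicle replicate 3 was high for Homer1 (4406 normalised reads, others 3402 to 3708), Pcsk1 (1506, others 1218 to 1301) and Prlr (307, others 133 to 178), and HT vehicle replicate 2 for the interferon list mean (7.32912).

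Among WT vehicle libraries, replicate 1 was high for Adora2a (1557 normalised reads, others 1104 to 1178), Kcnn1 (747, others 556 to 608) and Grm8 (633, others 547 to 575). Replicate 3 was high for Ocln (391, others 306 to 327) and low in the list means of hindbrain (5.95913) and meningeal markers (7.80993). Replicate 4 was low for Gldc (551, others 587 to 607) and in the list means of blood cell markers (8.76863) and clock genes (10.7766). Replicate 6 was high for Atp5b (37678, others 33796 to 34833) and low in the list mean of thalamic and hypothalamic markers (7.74089).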

How the results depend on the processing

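The count of 0 genes between HT vehicle and WT vehicle was 0 in each of 27 alternatives, 12 that leave out 1 library and 15 others. The smallest adjusted p (limma) fell as low as 0.337 with 1 library left out and 0.108 otherwise. Genes at an unadjusted p under 0.05 (limma) numbered 570 to 1063 with 1 library left out and 522 to 1449 otherwise. With the replicate number as a block, 0 genes were called and 906 had an unadjusted p under 0.05. Same-numbered libraries did not deviate together (r from -0.10 to 0.11, over 0.1 in 1 of 6 pairs), so the numbers were not taken as pairs, although libraries within 1 to 3 or within 4 to 6 shared deviations weakly (median r 0.09, and -0.06 across). Within replicate numbers 4 to 6, 1 gene was called under DCS and 1 in the interaction. In both this was Eif4ebp3, named after its values were seen. The 24 named genes changed sign in 0 of 645 values, and the 91 other genes in 31 of 2452. The sign changes were Grin3b with a pseudocount of 5 (0.0053) and with array weights (0.026). Within replicate numbers 1 to 3 they were Grin2d (0.0078), Grin3a (0.084), Grin3b (0.18), Jun (0.0051) and Cd68 (0.027), and within 4 to 6 Grin2b (-0.017), Enpp2 (-0.014), mt-Nd1 (0.014) and mt-Co3 (-0.069). With 1 library left out, Grin2b ranged from -0.0018 to 0.087, Grin2d from -0.040 to 0.0097, Grin3a from -0.025 to 0.024, Grin3b from -0.15 to 0.11 and Cd68 from -0.13 to 0.0032. The cause was not tested. List medians moved by more than the spread between libraries in 13 of 1215 values. Some lists not given for both ranges above also differed between them. Within 1 to 3 and 4 to 6, GABA-A receptor subunits were lower in 9 and 2 of 15, and NMDA receptor subunits in 1 and 5 of 7. Medians were -0.016 and 0.050 for hippocampal markers and 0.063 and -0.0095 for oligodendrocyte precursor markers. They were 0.016 and -0.015 for AMPA receptors and 0.015 and -0.028 for sodium and calcium channels. No scaling moved the median of all genes by more than 0.0024. At 6 libraries a group, differences under 1.2-fold could be bounded in 62.8% of genes.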
